A study of Mus musculus with 2 samples.

Results

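The mouse array used here carries probes against long intergenic non-coding RNA (lincRNA) loci that have no gene symbol and are named by their coordinates and strand on mouse build mm9. The loci described are those whose interval lay more than 50 kb from every probe with a RefSeq coding-transcript accession (NM_). This rule kept 1367 of 4061 lincRNA loci (33.7%), and the other 2694 lay within 50 kb. A locus was counted with its strand, so the 1367 loci fell on 1117 intervals, of which 250 were probed on both strands. The distance is to the nearest NM_ probe and not to the body of a gene, and 876 of the loci had a probe of another kind of transcript within 50 kb.

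RNA came from 46C cells, a mouse embryonic stem cell line with a GFP reporter at the Sox1 locus. The cells had been re-aggregated in low-adhesion dishes in G-MEM with knockout serum replacement and were collected at day 5 of neural differentiation. The wild type group was labelled WT and the other KO-Linc1548, a knockout of a lincRNA, and each had 1 array. The labels do not say how the knockout was made or whether it is 1 clone, and 0 probes on the array name Linc1548, so the targeted RNA was not read. With 1 array per group no difference has a replicate check, none was tested, and every direction given is that of the knockout array against the wild type one.

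LincRNAs are transcribed by RNA polymerase II outside protein-coding genes and are often spliced and polyadenylated, as messenger RNAs are. Many are expressed at low levels and in few cell types, and several are known from embryonic stem cells, where they can be active only in the pluripotent state or only during neural differentiation. Transcription of such a locus can accompany the activity of a nearby enhancer or gene, or can be independent of it.

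Nearly every locus rests on a single 60-base probe: 1280 loci had 1 probe, 76 had 2 and 11 had 3. The probes carry the sequence of the transcript strand, which is what lets an interval be read separately on each strand. The clearest case was an interval on chromosome 17 whose forward and reverse probes overlap, shown 5′ to 3′ with the 46 complementary bases in capitals. The pair from chromosome 3 below it is complementary over all 60 bases.

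chr17:88225376-88238756_F: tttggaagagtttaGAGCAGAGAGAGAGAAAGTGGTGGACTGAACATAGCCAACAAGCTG
chr17:88225376-88238756_R: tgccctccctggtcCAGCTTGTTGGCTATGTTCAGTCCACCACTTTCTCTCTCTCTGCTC
chr3:126989696-127112471_F: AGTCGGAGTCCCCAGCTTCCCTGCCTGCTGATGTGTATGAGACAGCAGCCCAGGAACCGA
chr3:126989696-127112471_R: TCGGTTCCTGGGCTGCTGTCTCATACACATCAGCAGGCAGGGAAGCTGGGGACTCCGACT

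The next set gives the probes of loci with large differences. It holds 2 loci that were higher on the knockout array (chromosomes 4 and 13), 2 that were lower (chromosomes 16 and 2) and a run of 3 lower loci on chromosome 5. Capitals mark AATAAA, the letters of the common polyadenylation signal, searched on the probe's own strand only.

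chr4:146017200-146029700_F: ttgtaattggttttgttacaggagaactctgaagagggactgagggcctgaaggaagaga
chr13:98267049-98267604_F: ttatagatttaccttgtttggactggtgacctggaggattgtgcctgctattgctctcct
chr16:34559623-34560462_R: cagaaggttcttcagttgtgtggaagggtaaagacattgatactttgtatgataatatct
chr2:115900355-115900904_F: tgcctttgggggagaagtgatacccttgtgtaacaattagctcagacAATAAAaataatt
chr5:111538420-111540142_F: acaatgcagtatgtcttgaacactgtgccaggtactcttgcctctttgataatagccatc
chr5:111565658-111566257_F: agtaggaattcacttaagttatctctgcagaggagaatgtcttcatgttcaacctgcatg
chr5:111602486-111603075_F: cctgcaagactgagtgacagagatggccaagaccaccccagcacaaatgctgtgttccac

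The last set shows probes that cannot be read apart, because the run in capitals is shared with a probe of another locus. The 2 chromosome 16 probes share 48 bases and the 2 chromosome 5 probes share 48 bases of a repeated stretch. In all, 47 of the 1367 loci had a probe sharing 25 or more bases with a probe of another name, and none of these was named under the rule for single loci.

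chr16:3111550-3130500_R: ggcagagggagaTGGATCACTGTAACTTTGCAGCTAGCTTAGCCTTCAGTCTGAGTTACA
chr16:3337275-3355950_F: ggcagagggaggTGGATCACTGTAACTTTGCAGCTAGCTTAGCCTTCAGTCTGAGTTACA
chr5:22887983-22939658_R: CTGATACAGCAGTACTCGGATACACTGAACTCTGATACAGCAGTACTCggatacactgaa
chr5:22890322-22939119_R: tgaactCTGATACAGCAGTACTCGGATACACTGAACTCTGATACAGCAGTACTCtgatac

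The loci ranged from 62 to 538251 bases in length, with quartiles at 1.43, 11.1 and 28.3 kb. Their distance to the nearest NM_ probe ranged from 50.1 to 2082 kb, with a median of 99.7 kb. The probes had a median GC content of 45%, and 54 of 1465 (3.69%) held AATAAA, against 3154 of 29638 NM_ probes (10.6%) and 124 of 2984 probes of lincRNA loci within 50 kb (4.16%). Of the 1465 probes, 41 matched a RefSeq promoter window (assembly GRCm38.p6, 250 bases before to 50 after a gene's start) over 25 or more bases. Intervals also overlap: 403 loci overlapped another of the 1367 on the same strand, so that they formed 1129 separate groups.

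Of the 56605 probes, 61.4% (wild type) and 58.5% (knockout) were well above background, and 0 were saturated. Signals are given after scaling both arrays to a common 75th percentile. Between repeated spots of 298 probes the SD of log2 signal was 0.065 and 0.070, which covers error within an array only. The cultures differed in their markers, given as the median of a gene's measured probes and summed over measured genes. All 8 naive pluripotency markers (median log2 difference 3.27, summed signal 5080 against 50900) and all 5 primed epiblast markers (2.07, 10400 against 43400) were past 2-fold higher in the knockout, and of 6 core pluripotency markers 2 were (0.54, 21400 against 35800), with Sox2 at 0.15. All 7 measured neural progenitor markers were past 2-fold lower (−2.52, 92500 against 9660), with Olig2 not well above background in the knockout. For 1 of the 7, Msi1, whose probes disagreed, the median of the differences was −1.57 but the median signals were 238 and 161. All 5 measured neuronal markers were past 2-fold lower (−2.02, 15400 against 3270), with Neurod4 not well above background in the knockout. Markers of other lineages were mixed. Of 4 measured mesendoderm markers 2 were higher and 1 lower (26000 against 9810, with Eomes at 3.22 and Foxa2 at −1.88). Mixl1 was not well above background in wild type. Of 4 fibroblast markers 1 was higher and 1 lower (2720 against 2910, with Thy1 at 2.17 and Col1a2 at −1.31). Of 4 endoderm markers 1 was higher (1310 against 1650). Both measured trophoblast markers were higher (257 against 998, with Cdx2 at 2.21). In the same list Tpbpa was well above background in wild type only, and Elf5 on neither array. Neither of the 2 measured mesoderm markers passed 2-fold (373 against 408), and Mesp1 and Hand1 were well above background on neither array. The part of these differences in the locus differences below was not tested. Fewer cells of a type and less RNA per cell cannot be told apart in such bulk samples.

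Fewer of the distant loci than of the nearer loci or genes gave a signal on these arrays. In wild type cells 606 of 1367 loci (44.3%) were well above background and in knockout cells 578 (42.3%), against 54.3% and 51.2% of the lincRNA loci nearer to genes and 74.4% and 73.3% of the NM_ genes. In all, 519 loci (38%) were measured on both arrays and 702 (51.4%) on neither. A further 87 loci (6.36%) passed in wild type cells only and 59 (4.32%) in knockout cells only. Over all genes and loci of the array these shares were 5.02% and 2.99%. The measured loci were dim, with median scaled signals of 132 (wild type) and 141 (knockout), where NM_ genes had medians of 905 and 893. The lincRNA loci within 50 kb were about as dim, with medians of 134 and 144.

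Of the 519 measured loci, 85 (16.4%) were higher by 2-fold or more in the knockout and 45 (8.67%) were lower by 2-fold or more, while 389 lay within 2-fold. Over all 20493 genes and loci the shares were 11.6% higher and 8.55% lower. The share of lower loci was thus near that of the array, and the share of higher loci was above it. The median log2 difference of the distant loci was 0.23, against 0.11 over all genes and loci, 0.17 over the lincRNA loci within 50 kb and 0.06 over the NM_ genes. Centring on spike-in controls, which moved all measured probes by −0.39 on the log2 scale, gave 52 higher and 69 lower with a median of −0.16, so the balance between higher and lower loci depends on the scaling. With loci that share a same-strand overlap counted once, the 85 higher loci formed 80 groups and the 45 lower loci 38.

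**Figure D1:**
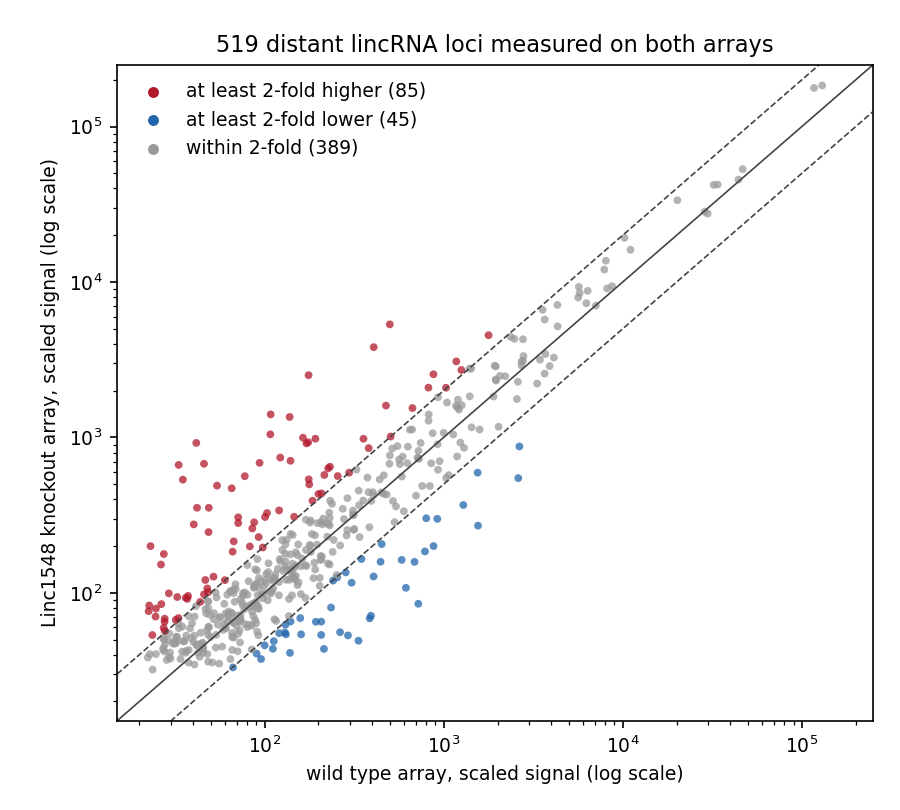
Scaled signal of the 519 distant lincRNA loci measured on both arrays, wild type on the horizontal and Linc1548 knockout on the vertical axis (both log scales), 1 point per locus; the solid line marks equal signal and the dashed lines 2-fold. The 85 higher loci lie on or above the upper dashed line and the 45 lower loci on or below the other.

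Of the lincRNA loci nearer to genes, 140 of 1284 (10.9%) were higher and 61 (4.75%) lower, and of the NM_ genes 12% were higher and 9.74% lower. Because the distant loci were dimmer than genes, the shares were also set side by side within 4 equal bins of the distant loci's mean signal, bounded at 69.2, 138 and 418. From the dimmest to the brightest bin, 16.2%, 10.9%, 25.4% and 13.1% of the distant loci were higher, against 20.2%, 23%, 16.3% and 8.43% of the NM_ genes. For lower loci these shares were 3.08%, 14%, 11.5% and 6.15%, against 4.53%, 13.8%, 16% and 7.87% of the NM_ genes. The distant loci thus had a smaller share of increases than the NM_ genes in the 2 dimmer bins and a larger share in the 2 brighter ones. Against NM_ probes taken singly, the dimmest bin was nearly level (16.2% against 16.5%). The other bins kept their order, with 18.8%, 14.8% and 7.77% of the NM_ probes higher. Against the lincRNA loci within 50 kb, the distant loci had the larger share in the dimmest bin (16.2% against 11%). They had the smaller share in the next bin (10.9% against 14.1%) and the larger share in the 2 brighter ones. These shares come from 1 array per group, so whether the sets differ was not tested.

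Of the 519 loci, 28 were higher by 4-fold or more and 13 lower, and 13 were higher by 8-fold or more against 1 lower. Shares past these limits were not counted over all genes and loci, so whether this balance is particular to the distant loci is not known. The 10 largest increases and the 10 largest decreases among loci with a clear signal on the dimmer array (at least 2 times the lowest signal called well above background there) rested on 1 probe each. With the normexp background correction the 10 increases ranged from 2.19 to 3.38 on the log2 scale and the 10 decreases from −2.24 to −0.94, and the order within each changed.

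**Figure D2:**
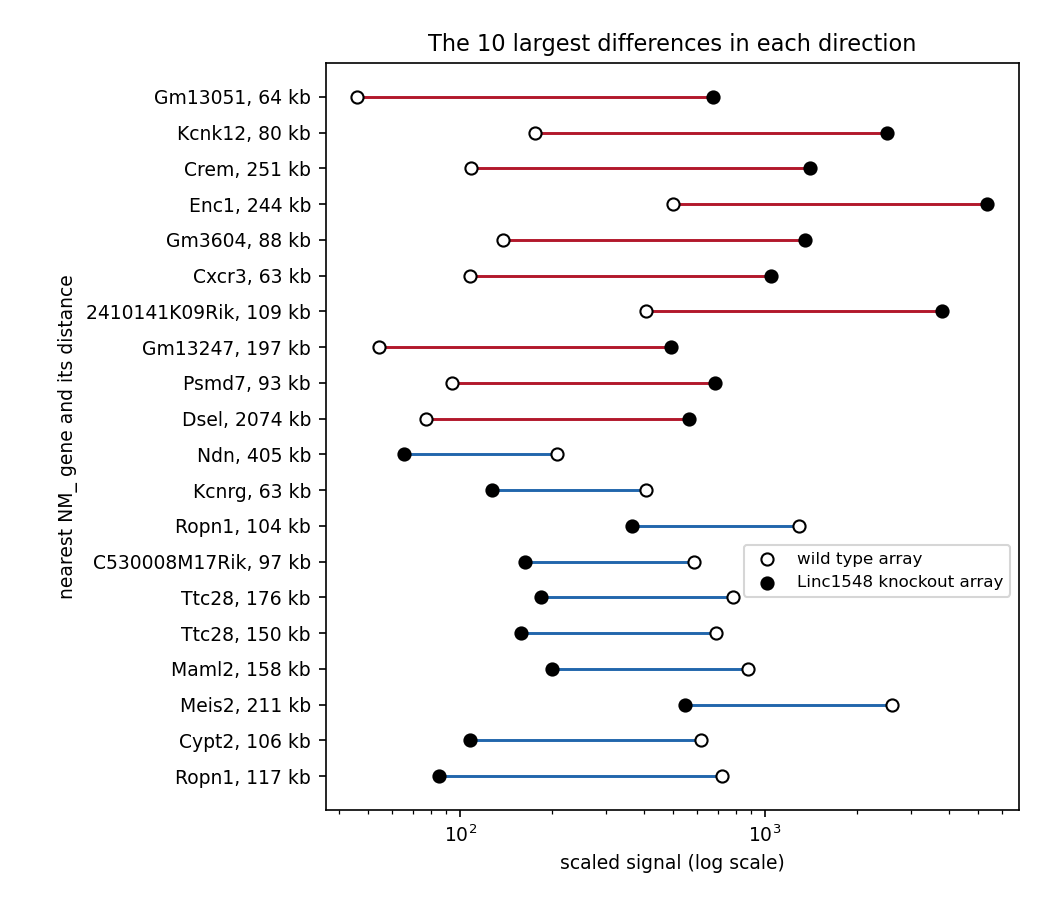
Scaled signal (log scale) on the wild type array (open circles) and the knockout array (filled circles) of the 10 loci with the largest difference in each direction, labelled with the nearest NM_ gene and its distance. Red lines join increases, from 14.7-fold beyond Gm13051 to 7.26-fold beyond Dsel, and blue lines decreases, from 8.49-fold beyond Ropn1 to 3.18-fold beyond Ndn.

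The largest of these increases lay on chromosome 4 at chr4:146017200-146029700, forward strand, 64.0 kb from the predicted gene Gm13051. It read 45.9 in wild type and 677 in knockout cells, a log2 difference of 3.88 (14.7-fold), which became 2.77 with normexp, below 5 of the other increases. Gm13051 itself read 3663 and 21849 (2.58 on the log2 scale). The reverse-strand locus chr4:145450600-145461600, 197 kb from the predicted gene Gm13247, read 54.3 and 490 (3.17, or 2.23 with normexp), with Gm13247 at 5115 and 64244 (3.65). Both loci belong to the densest group of increases. Between 145000941 and 146356650 on chromosome 4, 8 of 9 measured distant loci passed 2-fold upwards and 0 downwards, 1 of the 8 with a shared run, with a median log2 difference of 1.60. All 5 nearest genes there (Gm13051, Gm13212, Gm13247, Rex2 and Zfp600) passed 2-fold upwards too, but 4 of the 5 had a probe sharing 25 or more bases with a probe of another name, so these genes were not read apart. The stretch was picked as the 2 Mb window with most increases, so its count is a description.

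Similar loci lay on chromosome 13. The forward-strand locus chr13:62364360-62381775, 88.3 kb from the predicted gene Gm3604, read 138 and 1355 (3.30, or 9.82-fold), and the shorter locus chr13:62376235-62376890 inside it read 164 and 996 (2.60). Gm3604 read 154 and 323 (1.07), and 2810408B13Rik, whose nearest probe is 27.2 kb away, 61.3 and 147 (1.26). The reverse-strand locus chr13:66381200-66410200, 109 kb from 2410141K09Rik, read 407 and 3812 (3.23), while the forward strand of the same interval read 53.4 and 101 (0.92), its probe sharing bases with another. The nearest transcript of another kind, C330022B21Rik at 33.0 kb, read 62.8 and 791 (3.65). On chromosome 2, a window from 174991757 to 176906929 held 5 higher and 0 lower of 7 measured loci, with a median of 1.06 and 2 of the 5 sharing a run with another probe, but 0 of its 4 nearest genes (Gm14295, Gm14308, Gm14393 and Gm14432) were 2-fold changed.

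Beside other large increases the nearest NM_ gene stayed within 2-fold. The 556-base locus chr13:98267049-98267604, forward strand, read 501 and 5343, a log2 difference of 3.42 and the highest knockout signal among the named increases. Its nearest NM_ gene, Enc1, which encodes an actin-binding protein of the early nervous system, lies 244 kb away and read 4426 and 5188 (0.23). A closer non-coding transcript, Gm2379, with a probe 15.5 kb away, was higher too, at 111 and 1370 (3.62). The neighbouring locus chr13:98270713-98272269 on the same strand was well above background on the knockout array only, at 271, a bound of at least 12.7-fold. The reverse-strand locus chr8:110197171-110206546 read 93.8 and 686 (2.87), while Psmd7, a proteasome subunit gene 92.7 kb away, read 10822 and 12913 (0.25).

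At chr18:3003075-3016150, 251 kb from Crem, a gene of cyclic AMP-responsive transcription factors, both strands were higher. The reverse strand read 108 and 1407 (3.70) and the forward strand 33.1 and 666 (4.33, or 20.1-fold), the latter too dim on the wild type array for the naming rule. The 4 Crem probes had a median log2 difference of 0.41. The reverse-strand locus chr1:115829055-115854155 is the second most distant of all, 2074 kb from Dsel, which encodes a dermatan sulfate epimerase-like protein. It read 77.6 and 563 (2.86), and Dsel read 1161 and 1017 (−0.19). The forward-strand locus chrX:98989930-98994344, 63.0 kb from the chemokine receptor gene Cxcr3, read 108 and 1047 (3.28). A probe of the transcript 8030474K03Rik inside the same interval and strand read 34.3 and 339 (3.30), nearly the same difference. The longer locus chrX:98979320-98997145, which encloses both probes on that strand, read 1202 and 1750 (0.54).

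The largest difference of all was dim on the wild type array and so fell outside the naming rule; it was picked after its value was seen. The reverse-strand locus chr17:15368546-15377747 read 41.6 and 922, a log2 difference of 4.47 (22.2-fold), and chr17:15357376-15385701, which encloses it on the same strand, read 92.7 and 229 (1.30). Its nearest gene, Dll1, encodes a Notch ligand of neural progenitors and moved the opposite way, from 2332 to 260 (−3.17), at 127 kb.

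Decreases were smaller. The reverse-strand locus chr16:34559623-34560462 read 722 in wild type and 85.1 in knockout cells, a log2 difference of −3.09 (−2.24 with normexp), the lowest of the 519 loci. It lies inside the longer locus chr16:34524589-34573439, which fell on the same strand from 1289 to 368 (−1.81). Their nearest NM_ gene, Ropn1, which encodes a sperm protein, was not measured on both arrays, and the nearest probe of any kind, 11.5 kb from the longer locus, was for Kalrn, a guanine nucleotide exchange factor of neurons, which read 347 and 97.3 (−1.14). On the X chromosome, 2 overlapping reverse-strand loci fell together. The locus chrX:102567595-102589870 read 616 and 108 (−2.51), and chrX:102568332-102587093 inside it read 292 and 53.2 (−2.46), and the closest other transcript, 5330434G04Rik, read 174 and 72.5 (−1.27).

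For several of the decreases the nearest NM_ gene was also lower by its NM_ probes. The locus chr2:115900355-115900904, forward strand, read 2613 and 547 (−2.25), and Meis2, a homeobox factor of neural progenitors 211 kb away, read 8549 and 1505 (−2.51). The locus chr2:115892960-115911647 that encloses it on the same strand read 481 and 429 (−0.16), so the 2 probes differed. The forward-strand locus chr9:13349094-13352732 read 879 and 200 (−2.14), and Maml2, a coactivator of Notch signalling 158 kb away, read 502 and 135 (−1.89). The locus chr5:77188300-77205150, also forward, read 583 and 163 (−1.84), and C530008M17Rik read 2033 and 434 (−2.23) by its NM_ probe, 96.9 kb away. Another probe of C530008M17Rik lies 13.9 kb from the locus, and the median over all the gene's measured probes was −0.71.

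For the other 2 named decreases the nearest gene stayed within 2-fold. The reverse-strand locus chr14:62294849-62301165 read 406 and 128 (−1.67), and Kcnrg, a regulator of potassium channels, read 70.1 and 86.6 (0.31). The reverse-strand locus chr7:69088784-69089906 read 207 and 65.3 (−1.67), which became −0.94 with normexp. Ndn, an imprinted gene of neurons 405 kb away, read 15998 and 8637 (−0.89).

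Neighbouring loci were grouped into runs with gaps of at most 50 kb. Of 661 runs, 44 held at least 3 measured loci (163 loci in all). In 19 of the 44 runs 0 loci passed 2-fold, in 23 the loci past 2-fold all moved one way, and in 2 they moved both ways. Only 2 runs had at least 3 loci past 2-fold in one direction, and both were runs of decreases.

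The first run is the 3 forward-strand loci on chromosome 5 whose probes are printed above. They read 786 and 185 (−2.09), 688 and 158 (−2.12), and 207 and 53.6 (−1.95) in order along the chromosome. Ttc28, a tetratricopeptide repeat gene 113 kb from the closest of them, read 2080 and 420 (−2.31). All 3 loci and the gene were lower. With normexp the loci were at −1.69, −1.71 and −1.01, so the third was then just past 2-fold. The second run is on chromosome 1, from chr1:139795171 to 139857204, 103 kb or more from Ptprc, the CD45 antigen gene of blood cells, which was not measured on both arrays. Its 5 forward-strand loci had differences from −1.39 to −0.81, and 4 of them passed 2-fold. The brightest, chr1:139822286-139822985, read 1550 and 593 (−1.39). With normexp 3 of these 4 fell short of 2-fold, at −0.42, −0.59 and −0.63.

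The run with most measured loci showed small differences. It extends from chr13:28477490 to 28985604 beside Sox4, a transcription factor gene of neural progenitors, and its 9 measured loci, with 0 past 2-fold, differed by −0.73 to 0.65. Its longest locus, on the reverse strand, read 8726 and 9410 (0.11), and the locus chr13:28551902-28975446 inside it read 701 and 422 (−0.73).

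The brightest loci also lay within 2-fold. The single brightest, chr7:108209996-108216032 on the reverse strand, read 130131 and 184042 and shares a run with a probe of another name. The next, chr17:48068261-48087905 on the forward strand, 63.5 kb from the forkhead gene Foxp4, read 117182 and 177384 (0.60). The locus chr17:39983902-39985688, forward, which holds a probe of the ribosomal RNA gene Rn18s, read 46795 and 53271 (0.19), and chr17:39982023-39983277 beside it read 32177 and 42168 (0.39). The last value was 0 with spike-in centring, and the one before it became −0.20. The locus chr14:44292637-44293014, forward, read 44292 and 45625 (0.04), and the reverse-strand locus chrX:138967807-138968413 read 33933 and 42388 (0.32); both turned negative with spike-in centring.

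The plot of differences by chromosome shows where the higher loci lay. Chromosome 4 had 10 higher and 1 lower of 29 measured loci, chromosome 16 had 8 and 3 of 26, chromosome 1 had 10 and 4 of 38, and chromosome 13 had 8 and 0 of 39. On chromosome 5 the balance was the other way, with 4 higher and 7 lower of 32, and chromosomes 9 and 11 had 0 higher of 18 and of 8. Of the 10 higher loci on chromosome 4, 8 were those of the window described above. Among NM_ genes the share past 2-fold upwards ran from 9.39% on chromosome 13 to 15.8% on the X chromosome.

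**Figure D3:**
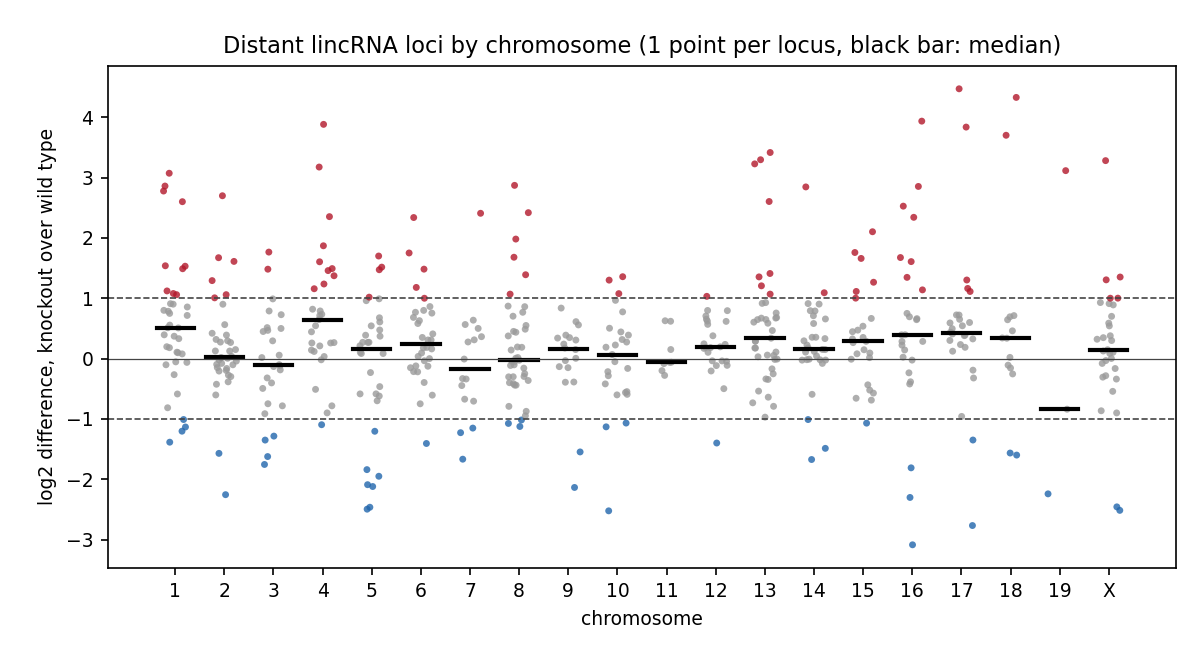
Log2 difference (knockout over wild type) of each of the 519 measured loci by chromosome, with black bars at the medians and dashed lines at 2-fold. Medians lie between −0.84 on chromosome 19, which has 3 loci, and 0.65 on chromosome 4.

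By length and strand the shares of higher loci lay close together. In the 4 quartiles of length, 14.9%, 14.3%, 20.9% and 15.4% of measured loci were higher and 10.5%, 8.27%, 9.3% and 6.99% lower, from the shortest to the longest. The shortest quartile had the lowest share measured on both arrays, 33.3%, against 41.8% in the longest. On the forward strand 16.4% of 250 measured loci were higher and 8.8% lower, and on the reverse strand 16.4% of 269 were higher and 8.55% lower. The shortest locus, 62 bases at chr10:83399729-83399790, and the longest, chr5:99726262-100264512, were not well above background on both arrays.

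Detection was lowest for the most distant loci. Of the loci at 50 to 100 kb, 40.1% were measured on both arrays, as were 39.9% at 100 to 250 kb, 30.8% at 250 to 500 kb and 18.8% of the 69 loci beyond 500 kb. Among the 13 measured loci beyond 500 kb, 5 were higher and 1 was lower. One of the 5, chrX:18810088-18814982 on the reverse strand, was at the limit with 1.00 on the log2 scale. The most distant locus, chr5:79860066-79860625, 2082 kb from Igfbp7, read 40.6 and 34.6 (−0.23).

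Loci on both sides of the 50 kb limit are given as a description. Just over it, at 50.1 and 50.2 kb, were chr3:34497447-34501170 near Sox2 and chr3:51004595-51005002 near Ccrn4l, neither measured on both arrays, and chr19:23068397-23190256 near Klf9, which read 23.1 and 200 (3.11). Its wild type signal was close to the lowest called well above background, and normexp gave 1.72. Klf9, a Krüppel-like factor gene, read 869 and 5916 (2.77). Just under it, at 49.8 to 49.9 kb, were chr5:74340084-74346709 near Usp46, at 62.4 and 146 (1.23), chr12:109994730-109995062 near Yy1, at 40.1 and 59.2 (0.56), and chr5:121765763-121768660 near Gm15800, which was not measured on both arrays.

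The strands of single intervals could differ. Of the 250 intervals probed on both strands, 75 had both strands detected on at least 1 array, 111 had 1 strand and 64 had none. In the 53 intervals with both strands measured, the brighter strand was the forward one in 26 and the reverse one in 27, and the mean signals of the strands differed more than 4-fold in 28. The differences of the strands had the same sign in 35 of 53 intervals and a correlation of 0.31 across intervals, which share the arrays and are not independent samples. In 15 intervals a single strand passed 2-fold, in 2 both did in the same direction, in 1 they did so in opposite directions, and in 35 neither did.

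**Figure D4:**
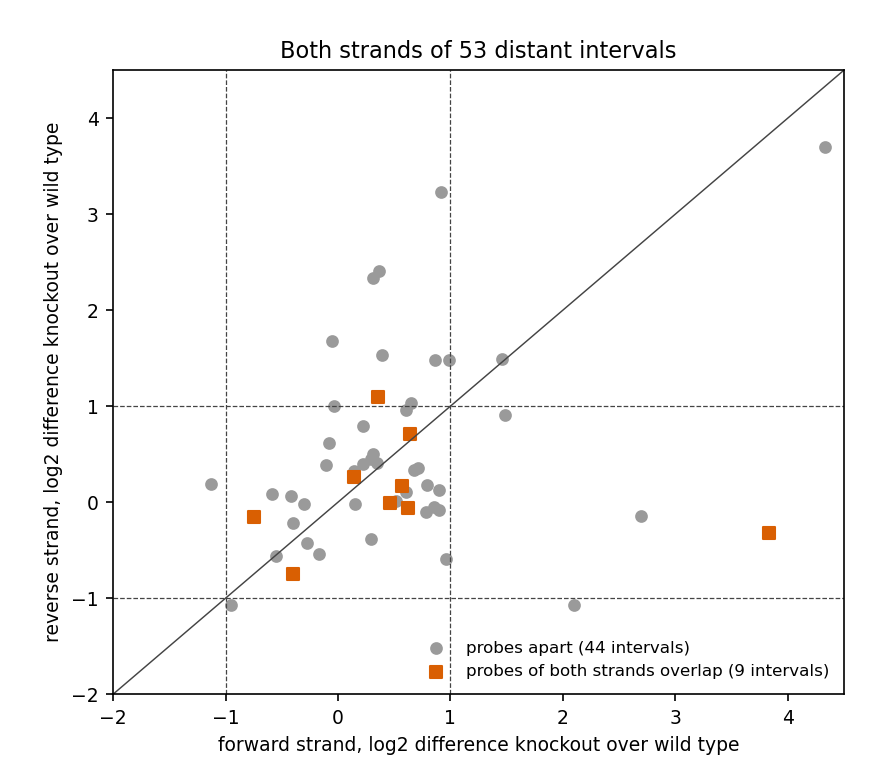
Log2 difference (knockout over wild type) on the forward strand (horizontal) and the reverse strand (vertical) of 53 distant intervals; orange squares are the 9 intervals in which measured probes of the 2 strands overlap by at least 20 bases, and dashed lines mark 2-fold. The orange point at 3.84 and −0.32 is the chromosome 17 interval whose probes are printed in the text.

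The interval chr17:88225376-88238756, 79.7 kb from Kcnk12, a potassium channel gene not measured on both arrays, had the widest gap. Its forward strand read 176 and 2517, a log2 difference of 3.84 (14.3-fold), and its reverse strand read 852 and 682 (−0.32). The reverse strand was the brighter on the wild type array and the forward strand on the knockout array. The forward probe covers 88238658 to 88238717 and the reverse probe 88238672 to 88238731. The unlike readings thus come from probes that overlap over 46 of their bases. The reverse strand stayed within 2-fold. Of 9 intervals with such overlapping probes measured on both arrays, this was the only one in which they differed by over 1 on the log2 scale, and the next widest gap was 0.74. One more such pair, at chr2:135472670-135484220, overlaps by 50 bases and also diverged, at 4.25 (forward) and −0.15 (reverse). Its forward probe was not well above background on both arrays. The fully complementary probes on chromosome 3 gave −0.40 (forward) and 0.16 (reverse). The reverse locus there has a second measured probe, and its median over both was −0.75, so its own probes differed in sign.

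The next gaps were on chromosomes 2 and 6. At chr2:135472670-135484220, 172 kb from Plcb1, a phospholipase C gene, the forward strand read 27.4 and 178 (2.70) and the reverse strand 72.4 and 65.3 (−0.15). The forward value became 1.48 with normexp and 3.47 with no filter on dim probes, and the reverse value 0.10 with normexp. The nearest probe of any kind to this interval, 3.07 kb away, was for Plcb4, which read 169 and 245 (0.69). At chr6:23105525-23118900, 63.0 kb from Aass, a lysine degradation gene that read 716 and 6621 (3.21), the forward strand read 87.1 and 108 (0.31) and the reverse strand 48.7 and 246 (2.34, or 1.5 with normexp). The interval with opposite calls, chr15:61984389-62102500, lies over the lincRNA gene Pvt1 and was left out of the ranking because a forward probe shares 28 bases with a Pvt1 probe. Its forward strand, that of Pvt1, read 71.3 and 306 (2.10) and its reverse strand 284 and 135 (−1.07). Of the probes named Pvt1, one read 278 and 1134 (2.03).

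Probes of other transcripts inside the intervals gave a second reading. There were 58 pairs of a measured locus and a measured probe of another name on the same strand, sharing fewer than 25 bases, and the differences of the pair had the same sign in 47 (81%) with a correlation of 0.62 across pairs. On the opposite strand 60 pairs had the same sign in 37 (61.7%) with a correlation of 0.15. The pairs came from 44 loci (same strand) and 39 loci (opposite strand), so they are not independent of each other. Among the 23 same-strand pairs in which the locus passed 2-fold, the other probe passed it in the same direction in 12 and in the opposite direction in 0. Neighbouring forward-strand loci on chromosome 1, picked after their values were seen, show such pairs. The locus chr1:138592780-138622719 read 122 and 742 (2.60) and the Platr22 probe inside it 151 and 1087 (2.84), while chr1:138579972-138587381 read 40.2 and 276 (2.78) and the Gm19705 probe inside it 182 and 1560 (3.10). Platr22 is named as a pluripotency-associated transcript.

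Among the lower loci, and picked in the same way, the reverse-strand locus chr14:65205076-65219432 read 445 and 159 (−1.49), and the shorter chr14:65205583-65205906 inside it read 66.7 and 33.1 (−1.01). A probe of Mir124a-1hg, the host transcript of a neuronal microRNA on the other strand of the longer locus, read 621 and 105 (−2.57). The 2 chromosome 5 loci that share 48 bases read 386 and 68.5 (−2.50) and 393 and 71.3 (−2.46), and a probe of LOC102635844 in the same interval and strand, which shares no such run with them, read 164 and 49.1 (−1.74), while another there, for 5031425E22Rik, read 181 and 96.5 (−0.91). The 2 chromosome 16 loci that share 48 bases read 35.0 and 535 (3.94) and 140 and 708 (2.34), so their increases are not independent of each other.

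Overlapping loci on the same strand can be compared in the same way. In 77 pairs of measured, overlapping loci with no shared run, differences had the same sign in 54 (70.1%), a correlation of 0.60 across pairs and a median gap of 0.45. A locus can enter several of these pairs, so the pairs are not independent of each other. In 11 pairs the gap was 1 or more on the log2 scale. Where at least 1 locus of a pair passed 2-fold (23 pairs), both passed it in the same direction in 8 and in opposite directions in 2. At chr10:6081900-6105500, forward, for example, the longer locus was at −1.07 and chr10:6103888-6104114 inside it at 1.08.

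The difference of a locus and of its nearest NM_ gene were set side by side for the 421 loci whose gene was measured on both arrays. They had the same sign in 236 (56.1%), with a Pearson correlation of 0.29 and a Spearman correlation of 0.27 across loci, which share the arrays and sometimes the gene. Of 69 higher loci, 18 (26.1%) had a gene past 2-fold upwards and 5 a gene past it downwards. Of 31 lower loci, 14 (45.2%) had a gene past 2-fold downwards and 2 a gene past it upwards. Among the 268 genes concerned, 39 were higher and 30 lower. The correlation was 0.38 at 50 to 100 kb, 0.26 at 100 to 250 kb and 0.15 over 250 kb by Pearson's r, and 0.36, 0.14 and 0.35 by Spearman's rho, so the classes have no steady order. Pearson's r was 0.27 for the lincRNA loci within 50 kb.

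**Figure D5:**
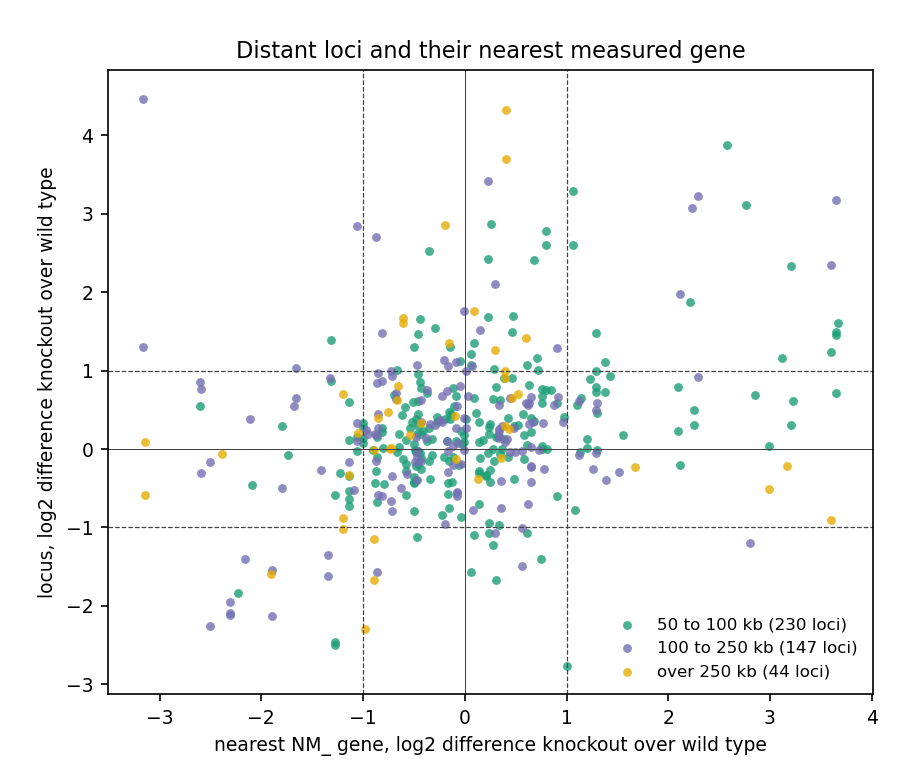
Log2 difference (knockout over wild type) of the nearest NM_ gene (horizontal) and of the distant locus (vertical) for 421 loci, coloured by distance, with dashed lines at 2-fold. The 18 loci in the upper right corner and the 14 in the lower left corner passed 2-fold together with their gene, and 5 and 2 loci lie in the opposite corners.

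Loci detected on a single array have a lower bound in place of a fold. The bound is set against the probe's signal on the array where it was dim, or against the lowest signal called well above background there (21.3 in wild type, 30.5 in knockout) where that is higher. Where that lowest signal applies, a locus detected in wild type only has the smaller bound at equal signal. Bounds in the 2 directions are thus not on one scale, and bounds over all genes and loci were not counted. Of the 59 loci detected in knockout cells only, 42 had a bound of at least 2-fold, with a median bound of 2.56-fold. The largest was chr16:9129538-9137898, forward, at 533 against 22.9, at least 23.2-fold higher. It was followed by chr19:53535104-53536627, forward, at 288 and at least 13.5-fold higher, near the MAP kinase phosphatase gene Dusp5, by the chromosome 13 neighbour given above, by chr18:69923410-69965360, reverse, at 236 and at least 11.1-fold higher, and by chr16:7947710-7948066, reverse, at 228, a bound of 3.42 on the log2 scale. The longer locus chr19:53517903-53540753, which encloses the chromosome 19 locus on the same strand, read 600 and 335 (−0.84), the opposite direction. The forward strand of the chromosome 18 interval was measured on both arrays, at 70.4 and 71.4 (0.02). Their nearest measured genes stayed within 2-fold, with 1810013L24Rik at 0.38 (−0.31 over all its probes), Enc1 at 0.23 and Tcf4, a basic helix-loop-helix factor, at −0.65.

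Of the 87 loci detected in wild type cells only, 12 had a bound of at least 2-fold and 39 had none above 1, and the median was 1.03-fold. The largest were chr9:41300137-41301556, forward, at 264 and at least 8.67-fold lower on the knockout array, chr1:94077221-94091396, reverse, at 232 and at least 7.60-fold lower, and chr16:38071700-38088275, forward, at 196 and at least 6.44-fold lower. The last 2 were chr7:37480456-37481372, forward, at 165 and at least 5.43-fold lower, and chr13:5506700-5519000, reverse, at 131 and at least 4.29-fold lower. Among genes near them, Tshz3, a zinc finger homeobox factor, fell from 1149 to 337 (−1.77) by its NM_ probe. That probe lies 76.5 kb from the chromosome 7 locus, and another Tshz3 probe lies 5.70 kb from the locus. Over all its measured probes Tshz3 read 489 and 174 (−1.49). Hdac4 stayed at −0.06, Sorl1 was higher (1.29) and Klf6 was at 0.37.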

How the data were processed

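Total RNA was labelled with Cy3 and hybridised to 2 one-colour arrays. Per the file headers, Agilent Feature Extraction 10.7.1.1 gave spot intensity values, background-subtracted and detrended within each array, with no normalization between arrays and positions on build mm9. The flag for a spot well above background was also deposited by the authors.

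Outlier spots were left out and spots of a probe averaged as log2. Each array was centred on its 75th percentile over non-control probes (864 and 652). A probe was measured where at least 0.5 of its spots were well above background on both arrays. A locus has the median of its measured probes. The fold limit was 2, with no test. Named are the 10 largest differences each way, the 5 largest bounds each way, the 5 brightest loci, the 3 widest strand gaps, runs with at least 3 loci past 2-fold one way, the loci at both ends of distance and length, and 3 on each side of 50 kb; others are said to be chosen after seeing values or illustrate a count. Loci sharing 25 bases with another probe were not ranked. The loci and marker lists were chosen with earlier results of these data known. Tested on simulated arrays of 1803 loci, the steps found 200 of 200 loci that had been given a log2 change of 1.5, and called 0 others. The simulation added only the noise between repeated spots, to loci already measured. Differences between arrays, cultures, background or scaling were left out, so it does not measure the error of the counts. Python 3.11.15, pandas 2.3.3, statsmodels 0.14.6 and, for normexp, limma 3.58.1 in R 4.3.3 were used. Alternatives were other scalings, another background correction, other filters on dim probes, other distance limits, merged strands and the brightest probe. The number of arrays limits the precision. The nearest gene of 1 named locus is not reported here.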

Additional observations from a re-analysis of the deposited data

How the results depend on the processing

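The 85 higher and 45 lower loci became 52 and 69 with spike-in centring (median −0.16), 49 and 22 with the normexp background correction, 42 and 18 with a stricter filter on dim probes, and 228 and 109 with no filter (median 0.52, 1365 loci). Over 100 kb from NM_ probes they were 41 and 27, and over 50 kb from every other probe 36 and 14, both of fewer loci. With the software's looser flag, 68.5% (wild type) and 65.8% (knockout) of loci were detected. Quantile, loess and median scaling, merged strands, the brightest probe, a 25 kb limit and, added after seeing the data, leaving out loci that share 25 bases (77 and 41) kept both counts within 1.5 times. Of 28 named loci past 2-fold, 24 stayed past it in every setting run on them, and the other 4 lost it under normexp. Some of the 28 were too dim for the stricter filter and have no value there. They include chr4:146017200-146029700 and chr16:34559623-34560462, the largest named increase and decrease. Small differences of 6 named loci changed sign. The causes were not tested. Of the loci, 51.4% were not well above background on either array, and no replicate was available. No paired analysis was possible because each group has 1 array.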

Other observations

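Loci were also split by whether their nearest NM_ gene is described as a zinc finger gene, a class chosen after the values were seen. Of 32 such measured loci, 8 passed 2-fold upwards and 1 downwards (median log2 difference 0.59), against 77 and 44 of the other 487 with a median of 0.21. The medians did not hold apart in every setting. Without the 5 that share 25 bases with another probe, 6 of 27 were higher and 1 was lower, with a median of 0.28 against 0.22. With the stricter filter on dim probes 5 of 19 were higher, with a median of 0.06 against 0.27, and over 100 kb 2 of 13 were higher, with a median of 0.02 against 0.24. With spike-in centring 5 were higher and 4 lower (median 0.20) against 47 and 65 (median −0.17). Of the 23 genes concerned, 4 were higher and 3 lower. Over all 579 measured NM_ zinc finger genes, 43 were higher and 64 lower, with a median of −0.14.

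The place of the probe within its locus was compared in loci of 1000 bases or more. Probes in the first part of the locus, by transcription, had 11 of 100 higher and 6 lower, those in the middle part 18 of 116 and 7, and those in the last part 46 of 227 and 23. Probes of higher loci had a median GC content of 45% and those of lower loci 40%.

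In 29 loci with several measured probes, the differences of the probes spanned a median of 0.31 on the log2 scale. In 7 of them the span was over 1, and in 0 did probes of the same locus pass 2-fold in both directions.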
